A study of Rattus norvegicus with 9 samples.

Results

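Among 9 whole-brain RNA libraries of male rats, 2 carried far more Tph1 RNA than the rest and are compared here with the remaining 7. The sets were chosen by the measured level of Tph1, in CPM, counts scaled to a common library total of 1000000: a library with 50 CPM or more was placed in the rich set. The libraries of heterozygous Lrap-/+ rats 2 and 3 met this limit. The other set held wild type rats 1 to 3, heterozygous Lrap-/+ rat 1 and homozygous Lrap-/- rats 1 to 3. Because the split was made on these values, every difference between the sets is given as a description with no test, and tests are kept for the genotypes of the labels.

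All rats were alcohol-naive and untreated, and each library came from the whole brain of 1 rat. The 3 wild type controls were Wistar animals supplied by Charles River. The 3 heterozygous and 3 homozygous rats carried 1 or both copies of a CRISPR/Cas9 deletion of 618 bp that takes out sequence of Lrap, a long non-coding RNA, on the Crl:WI background (line Crl:WI-Lrapem1Geh). Sources used here do not give rat ages, the hour of dissection or the handling of the pineal gland at dissection. Both rich libraries are heterozygous, so no other genotype is found in the rich set. In bulk RNA, more pineal cells and more RNA per pineal cell cannot be told apart.

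The pineal gland is a small organ attached to the dorsal midline of the brain, close to the habenula and under the meninges. Its pinealocytes turn tryptophan into serotonin with tryptophan hydroxylase 1 (Tph1) and serotonin into melatonin with the enzymes Aanat and Asmt, mainly at night under noradrenergic control. Pinealocytes share an origin with retinal photoreceptors, are specified by the homeobox factors Otx2 and Crx, and express many genes of the photoreceptor light response. Serotonin neurons of the raphe use a different hydroxylase gene, Tph2.

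Library totals ran from 27489383 to 46975919 expected counts, and both rich libraries lay in the upper part of this range with 42657594 and 46975919. Mitochondrial transcripts took 28.1% and 15.1% of counts in heterozygous rats 2 and 3 and 14.8% to 40.4% in the others. The RNA standards added to the samples were sorted into a pair of patterns by the share of 1 standard, the most abundant, cut at the middle of its range. It took 14.3% to 15.8% of standard counts in 5 libraries (wild type 1 and 3 and all heterozygous rats). In the other 4 (wild type 2 and all homozygous rats) it took 23.2% to 30.7%, with wild type 2 lowest. Both rich libraries have the first pattern. The Lrap isoform whose exon holds 618 bases that the other isoform skips was at 2.03 to 2.79 CPM in wild type, 0.900 to 1.16 in heterozygous and 0.202 to 0.382 in homozygous libraries, in the order of the labels.

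The 4 pineal markers, Tph1 and the photoreceptor-type genes Rbp3, Gnb3 and Pde6g, were all higher in both rich libraries than in any other. Tph1 (MSTRG.5014, minus strand of chr1:102669868-102699442, rn6) reached 105 CPM in heterozygous rat 2 and 75.2 CPM in heterozygous rat 3. Wild type rats 1 to 3 had 0.159, 3.83 and 1.30 CPM, heterozygous rat 1 had 1.26 CPM, and homozygous rats 1 to 3 had 0.218, 0.184 and 5.61 CPM. The library just inside the limit of 50 CPM was thus heterozygous rat 3, and the library just outside it was homozygous rat 3. No library lay between 5.61 and 75.2 CPM. The count of 3532 in heterozygous rat 3 gave an exact 95% Poisson interval of 72.7 to 77.7 CPM, and the count of 263 in homozygous rat 3 an interval of 4.96 to 6.33 CPM, both for counting error only.

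Rbp3, which encodes the retinoid-binding protein of the matrix around photoreceptors, reached 7.10 and 8.05 CPM in the rich pair (heterozygous rats 2 and 3, in this order throughout). It had 0 counts in wild type rat 1 and homozygous rats 1 and 2, with 0.112, 0.0592, 0.151 and 0.341 CPM left in wild type rat 2, wild type rat 3, heterozygous rat 1 and homozygous rat 3. A count of 0 allows up to 0.109 CPM in homozygous rat 1, the shallowest library. Pde6g, the inhibitory subunit of the photoreceptor phosphodiesterase, was at 19.4 and 16.8 CPM in the rich libraries and at 0.238, 0.670, 0.532, 0.452, 0.218, 0.207 and 0.982 CPM in wild type 1 to 3, heterozygous 1 and homozygous 1 to 3. Gnb3, a transducin-type G protein beta subunit, was at 7.78 and 7.09 CPM against 0.291, 0.698, 0.473, 0.754, 0.546, 0.506 and 0.640 CPM in the same order. The sets did not overlap for any of the 4 markers, and homozygous rat 3 had the highest value of the other set for 3 of them, Gnb3 being highest in heterozygous rat 1.

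**Figure D1:**
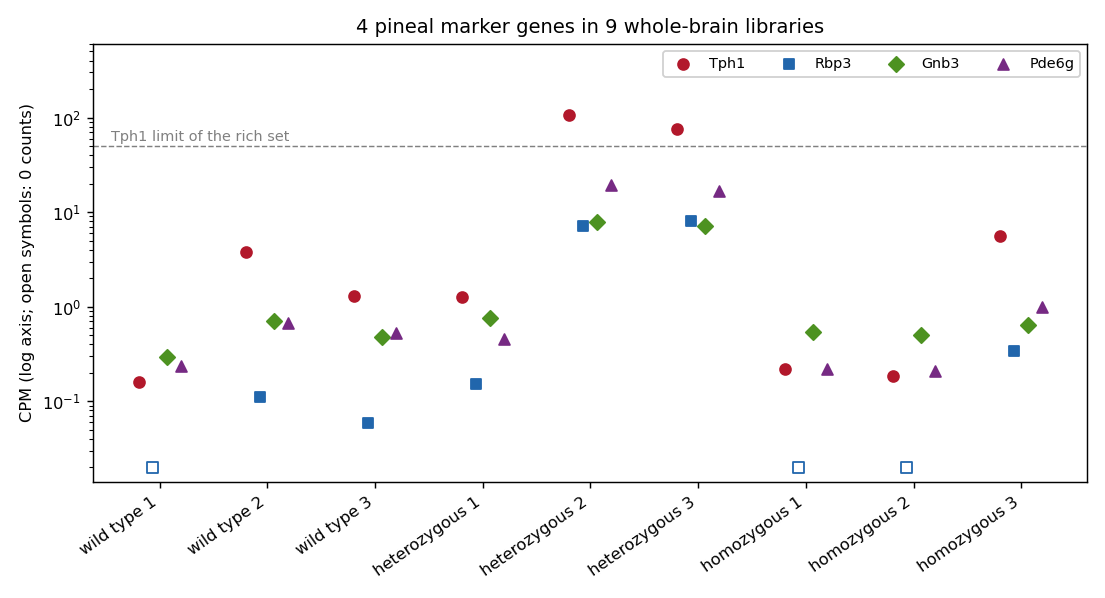
CPM of Tph1, Rbp3, Gnb3 and Pde6g (log axis) in each of the 9 libraries, 1 symbol per gene and library, with open symbols for 0 counts and a dashed line at the Tph1 limit of 50 CPM. Heterozygous rats 2 and 3 sit above all other libraries for each gene, and homozygous rat 3 and wild type rat 2 have the next highest Tph1 at 5.61 and 3.83 CPM.

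Across all 15548 annotated genes with 50 or more counts in sum, 28 (0.18%) had a mean CPM at least 4-fold higher in the rich set with no overlap between the sets, and 3 (0.0193%) at least 4-fold lower. Without the fold limit, 143 genes (0.92%) lay apart on the higher side and 41 (0.264%) on the lower side. The median ratio of rich over other mean CPM over all of these genes was 1.02. Of the 28 genes called higher, 20 were members of 5 pineal gene lists, 1 (Chrnb4) was on a habenula list and 7 were on no list. The pineal lists named 75 genes, of which 61 matched a locus and 53 had 50 or more counts. None of the 53 was called lower and 29 lay apart on the higher side. The median ratio over all 61 matched members, with no count minimum, was 2.05. These counts use the same contrast as the rule, so nothing further is read from them.

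**Figure D2:**
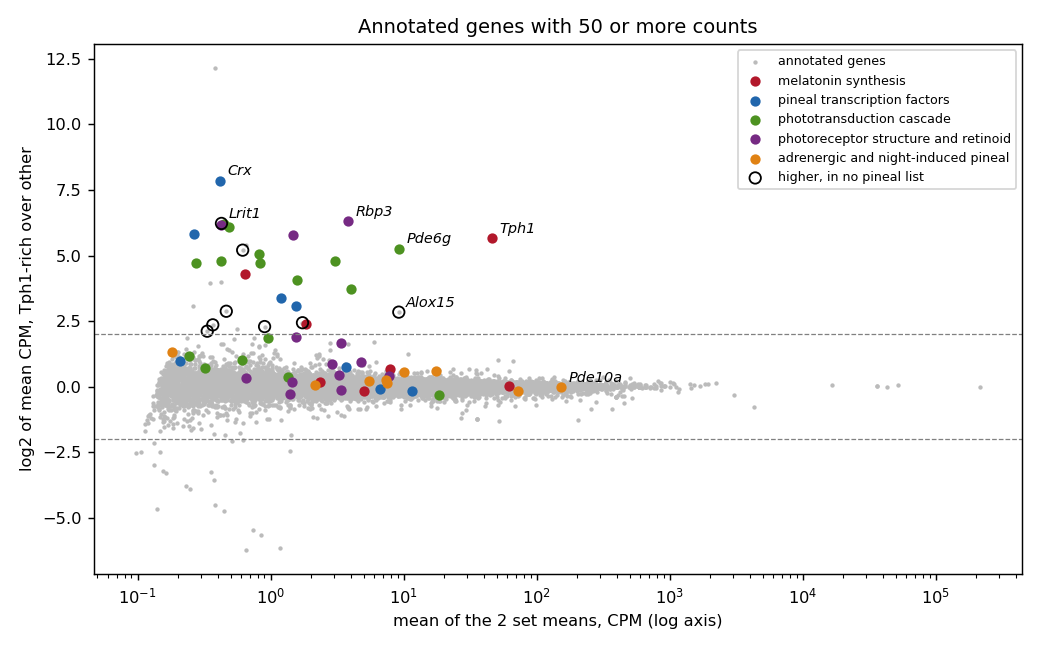
Log2 ratio of mean CPM, rich over other set, against the mean of the set means in CPM (log axis) for annotated genes with 50 or more counts, with the members of the 5 pineal lists in colour, genes called higher outside them as open circles, and dashed lines at a fold of 4 in each direction. Most genes lie near 0, and the coloured points of the phototransduction list are the largest group above the upper line, 10 of the 28 called.

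Of the melatonin pathway, 3 of the 7 genes with the count minimum were called higher, Tph1, Asmt and Gch1, where 0.18% of all annotated genes were called. Asmt, which makes the last step to melatonin, was at 1.27 and 1.17 CPM in the rich pair and at 0 to 0.151 CPM in the others, a ratio of 19.7. Gch1, the first enzyme of the tetrahydrobiopterin cofactor that Tph1 needs, was at 3.07 and 3.11 CPM against 0.318 to 1.12 CPM, a ratio of 5.29. Aanat, the night-induced enzyme before Asmt, was below the count minimum with 45 counts in sum, at 0.375 and 0.277 CPM against 0 to 0.118 CPM. The other 4 members overlapped between the sets: the decarboxylase Ddc (ratio 1.59), the cofactor enzymes Pts (1.14) and Qdpr (1.02), and the vesicular transporter Slc18a1 (0.90). Together the 8 members summed to 204 and 146 CPM in the rich libraries and 59.3 to 122 CPM in the others.

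Of the 9 transcription factors listed, the photoreceptor and pinealocyte factor Crx was at 0.938 and 0.724 CPM in the rich pair and was detected in the others by 1 count, in heterozygous rat 1. Its pooled ratio of 219 rests on that single count, with an exact 95% counting interval of 38.1 to 8755. Isl2, a LIM homeobox factor, was at 0.563 and 0.490 CPM with 3 counts in the other set (pooled ratio 46.3, interval 14.9 to 233). The LIM homeobox factor Lhx4 was at 2.44 and 1.94 CPM against 0.10 to 0.444, and the bHLH factor Neurod4 at 3.35 and 2.19 CPM against 0.230 to 0.586. Otx2, which acts upstream of Crx and is also abundant in the choroid plexus, lay apart by a ratio of only 1.67, at 5.37 and 3.90 CPM against 1.72 to 3.74. Pax4 lay apart at a ratio of 1.96, and Bsx did so at 0.164 and 0.0852 CPM with 15 counts in sum. Neurod1 and Pax6, which cerebellar granule cells also express, overlapped at ratios of 0.90 and 0.95.

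Crx and its relative Otx2 bind sites with the core TAATCC, so the 250 bases before the annotated start were searched for these letters on both strands (TAATCC or its reverse complement GGATTA, overlaps allowed) in RefSeq promoters of build GRCr8. Of the 28 genes, 21 had a promoter in the table, and 8 of these (38.1%) held the motif, against 6.34% of all 33469 promoters. For the 28 genes the first promoter of each symbol was used, while the 6.34% counts every promoter. The genes were picked by the contrast above, so the shares are descriptions. The 8 were Crx, Rbp3, Lrit1, Aipl1, Gngt1, Guca1a, Esm1 and Trpm1. The 3 pineal-list members of highest ratio among them, and Tph1, which had no match in its window, are printed below 5′ to 3′ on the strand of the gene, with the motif in capitals. Their windows are chr1:85681853-85682102 on the minus strand for Crx, chr16:9273537-9273786 on the plus strand for Rbp3, chr10:57163456-57163705 on the minus strand for Aipl1 and chr1:106314629-106314878 on the minus strand for Tph1.
Crx: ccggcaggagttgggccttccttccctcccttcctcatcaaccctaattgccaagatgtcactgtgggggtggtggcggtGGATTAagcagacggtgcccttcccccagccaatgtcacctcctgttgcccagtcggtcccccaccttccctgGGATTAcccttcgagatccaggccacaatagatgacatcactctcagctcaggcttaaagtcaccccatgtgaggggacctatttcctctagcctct
Rbp3: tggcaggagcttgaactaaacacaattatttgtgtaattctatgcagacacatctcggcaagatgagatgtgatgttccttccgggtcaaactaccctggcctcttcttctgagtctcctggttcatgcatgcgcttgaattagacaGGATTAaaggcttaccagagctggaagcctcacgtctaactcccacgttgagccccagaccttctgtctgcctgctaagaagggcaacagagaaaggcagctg
Aipl1: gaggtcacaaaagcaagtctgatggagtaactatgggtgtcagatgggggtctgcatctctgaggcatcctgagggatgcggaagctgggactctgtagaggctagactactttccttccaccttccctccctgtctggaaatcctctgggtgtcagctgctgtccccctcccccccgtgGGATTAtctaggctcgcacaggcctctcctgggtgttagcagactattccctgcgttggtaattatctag
Tph1: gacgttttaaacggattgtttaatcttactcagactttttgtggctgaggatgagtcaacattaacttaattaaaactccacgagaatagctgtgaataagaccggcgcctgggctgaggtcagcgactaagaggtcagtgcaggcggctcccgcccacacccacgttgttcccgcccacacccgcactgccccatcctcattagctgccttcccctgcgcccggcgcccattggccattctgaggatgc
The matches begin 170 and 97 bases before the start of Crx, 103 before that of Rbp3 and 70 before that of Aipl1. A match is a description of these letters and not evidence of binding.

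In the phototransduction cascade a G protein activates a cyclic GMP phosphodiesterase that closes cation channels. It was the list with the most members called, 10 of the 16 with the count minimum, where 0.18% of all annotated genes were called. Of its 27 genes 9 had no matched locus and were not measured here: Gnat1, Pde6a, Pde6b, Cnga1, Cnga3, Cngb3, Gucy2e, Gucy2f and Arr3. The cone-type genes below can therefore not be set against these. The G protein subunits were covered by alpha, beta and gamma genes. Gnat2, the cone-type alpha subunit, was at 5.72 and 6.0 CPM in the rich pair and at 0.0364 to 0.614 CPM in the others. The gamma subunits Gngt1 and Gngt2 were at 1.38 and 1.83 CPM against 0 to 0.223, and at 3.05 and 2.87 CPM against 0.0795 to 0.307. Pdc (phosducin), which binds the beta and gamma subunits, was at 1.01 and 0.766 CPM, with 3 counts in the other set, all in wild type rat 2 (pooled ratio 77.8, interval 25.7 to 386).

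The catalytic subunit of the cone phosphodiesterase, Pde6c, was at 1.05 and 0.852 CPM against 0 to 0.0427. A second locus assembled under the same gene name (MSTRG.11872) was at 0.610 and 0.660 CPM against 0 to 0.0640. Its cone inhibitory partner Pde6h was at 0 counts in both rich libraries and at up to 0.0558 CPM in the others, while the other inhibitory subunit, Pde6g, gave the marker values above. Arrestin (Sag), which ends the light signal, was at 0.876 and 0.755 CPM against 0 to 0.0854. The guanylate cyclase activators Guca1a and Guca1b, which restore cyclic GMP, were at 0.563 and 0.490 CPM against 0 to 0.0640, and at 1.57 and 1.60 CPM against 0 to 0.118.

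Below a fold of 4, the rhodopsin kinase Grk1 was at 1.5 and 1.49 CPM against 0.218 to 0.532 (ratio 3.62), and Rgs9bp and the cyclase Gucy2d lay apart at ratios of 2.22 and 2.05. For the channel subunit Cngb1 the most abundant locus overlapped at a ratio of 1.65, but a second locus under that name, MSTRG.48474 on chr19:10157179-10159487 of rn6, was at 0.750 and 0.617 CPM against 0 to 0.0592 CPM. Rgs9, which the striatum also expresses, Slc24a1 and the recoverin gene Rcvrn overlapped between the sets. Rcvrn had 16 counts in sum and none in heterozygous rat 3.

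Among 13 genes of photoreceptor structure and the retinoid cycle with the count minimum, Rbp3, Aipl1 and Tulp1 were called higher. Of all annotated genes 0.18% were called. Prph2 and Rdh8 had no matched locus and were not measured here. Aipl1, a chaperone for the phosphodiesterase, was at 3.24 and 2.58 CPM against 0 to 0.128. Tulp1, a protein of photoreceptor transport, was at 0.703 and 0.979 CPM with 3 counts in the other set (pooled ratio 74.9, interval 24.7 to 371). Impg2 (ratio 3.73), Rom1 (3.15), Cplx3 (1.93) and Mpp4 (1.85) lay apart at a smaller fold, with Rom1, an outer segment disc protein, at 5.79 and 4.53 CPM against 1.35 to 1.92. A second locus named Mpp4 (MSTRG.106865) was at 2.09 and 3.11 CPM against 0.0728 to 0.683. Cacna1f, the calcium channel of photoreceptor synapses, Cplx4 and Cabp4 lay apart with 46, 37 and 23 counts in sum. Impg1 overlapped: wild type rat 3 held 10.6 CPM and homozygous rat 1 held 4.55 CPM, against 4.17 and 3.38 in the rich libraries. Unc119, Rp1, Rpgrip1, Abca4, Rdh12 and Fscn2 also overlapped, at ratios from 0.82 to 1.32.

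Of the 12 genes on the adrenergic and night-induced list, 9 matched a locus and none of these lay apart. Adrb1, Drd4 and Dio2 had no matched locus and were not measured here. The 9 that overlapped included the receptor Adra1b (ratio 1.05), the cyclic AMP repressor gene Crem (1.20), Fosl2 (1.18), Pde4b (0.90), Pde10a (0.99) and Atp7b (1.09). Slc15a1, a peptide transporter, had the largest ratio, 2.50, from 0.404 CPM in heterozygous rat 3 against 0.117 in heterozygous rat 2 and up to 0.149 in the others. Nr4a1 and Sik1, early response genes of many neurons, were at ratios of 1.53 and 1.48 but were highest in homozygous rat 2, at 31.6 and 16 CPM. Circadian clock genes were likewise not separated: all 17 overlapped, with a median ratio of 1.01. Without the fold limit, only 0.92% of all 15548 annotated genes lay apart on the higher side and 0.264% on the lower. Complete overlap of a short list is thus near the share of all genes and is no result about its members. The sum over all 61 pineal members, to which Pde10a alone gave 186 and 119 CPM in the rich pair, was 687 and 500.1 CPM in the rich libraries and 329 to 524 CPM in the others, a ratio of 1.41 with overlap.

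**Figure D3:**
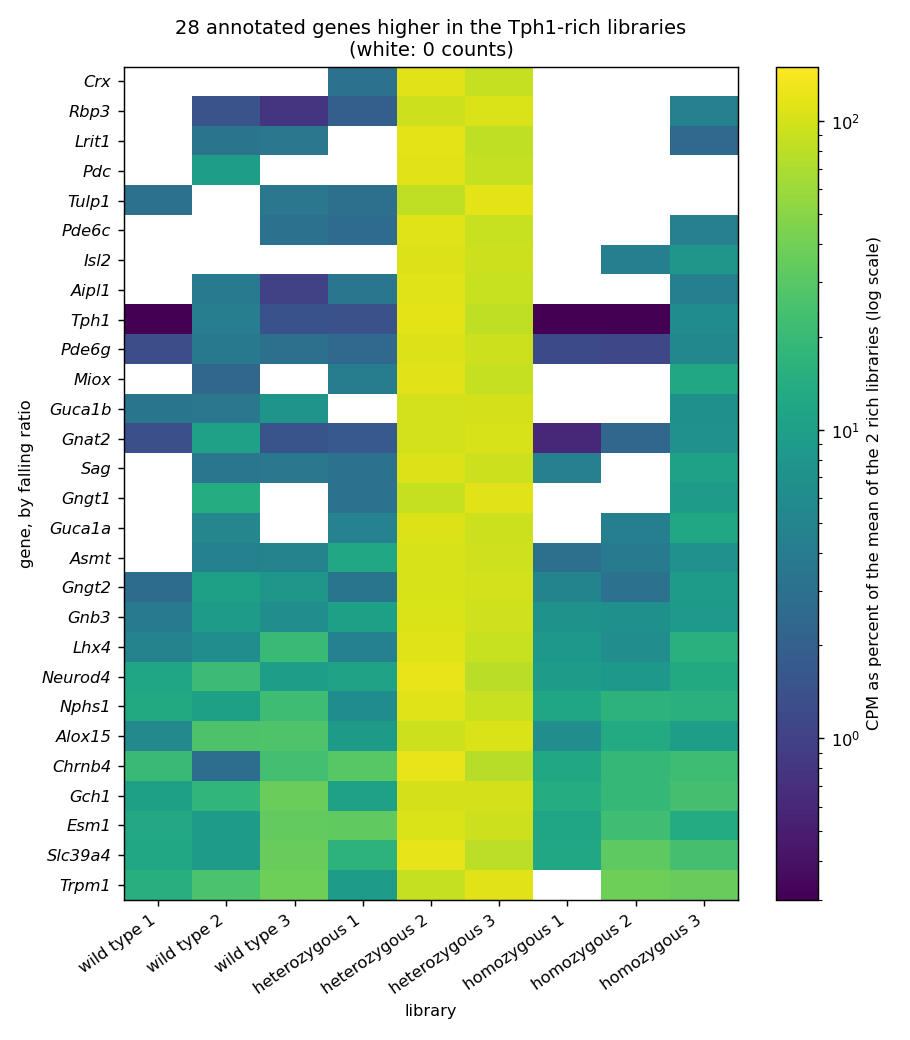
CPM of each of the 28 genes called higher in each library, as percent of its mean over heterozygous rats 2 and 3 (log colour scale, white for 0 counts), genes ordered by falling ratio. Homozygous rat 3 and wild type rat 2 stand next after the rich pair, with medians of 8.95% and 4.95%, and homozygous rat 1 has the lowest median, 0.43%.

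The rich libraries had similar levels across the called genes. Each gene was called for being higher in both, so this likeness partly follows from the choice. The ratio of heterozygous rat 3 to heterozygous rat 2 ran from 0.63 to 1.39 over the 28 genes, with a median of 0.87. The 28 genes summed to 196 and 160 CPM in these libraries and to 3.60 to 13.6 CPM in the others. Without Tph1 the sums were 90.1 and 84.4 CPM against 3.44 to 9.76 CPM, beside 105 and 75.2 CPM of Tph1 alone in the rich pair. On the length-scaled TPM of the authors, where genes can be compared with each other, Tph1 had the highest mean level of the 28 in the rich set, 19.9 TPM against 0.374 in the other set. It was followed by Pde6g (9.29 against 0.224 TPM), Gngt2 (5.13 against 0.241), Alox15 (4.16 against 0.57), Gnb3 (2.54 against 0.173), Gngt1 (2.45 against 0.09) and Gnat2 (1.98 against 0.06). In TPM the 28 genes summed to 65.6 and 47.8 in the rich pair and to 1.02 to 4.64 in the others.

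Low levels of many of the 28 genes were also seen in the other 7 libraries, and the tissue they came from was not tested. Homozygous rat 3 was the highest of them for 9 of the 28 genes, wild type rat 3 for 9, wild type rat 2 for 5, heterozygous rat 1 for 4 and homozygous rat 2 for 1. Across these 7 libraries, which lie on 1 side of the limit, the CPM of Tph1 had a Pearson r of 0.97 with Pde6g, 0.90 with Rbp3 and 0.54 with Gnb3 (Spearman rho 0.89, 0.85 and 0.57, n = 7). The 7 were set apart by Tph1 and the other genes are markers of the same choice, so these are descriptions with no test. Without homozygous rat 3 and wild type rat 2, the libraries farthest from the median of Tph1, r was 0.98, 0.86 and 0.55 in the same order over 5 libraries. The libraries of each pattern of RNA standards among the 7 numbered 3 and 4, too few for a value within each.

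Tph1 itself was assembled as 4 isoforms. The isoform that matches the reference gene, MSTRG.5014.1, was assigned 2320 and 1522 counts for the rich pair, 110 for wild type rat 2 and 162 for homozygous rat 3, and none in the other 5 libraries. Those 5 libraries placed most of their 6 to 50 Tph1 counts on isoform MSTRG.5014.3, which held 39.5% and 38.2% of the gene in the rich libraries. Assignment between isoforms at such counts is uncertain. An antisense locus on the plus strand (MSTRG.5015) had 1 count in each rich library and in homozygous rat 3.

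Outside every list, 7 genes were called higher. Lrit1, a leucine-rich repeat protein of photoreceptors, was at 0.985 and 0.702 CPM in the rich pair and had 3 counts in the others (pooled ratio 73.9, interval 24.3 to 366). Miox, an inositol oxygenase best known from kidney, was at 1.36 and 1.04 CPM against 0 to 0.149. Nphs1, the gene of the slit diaphragm protein nephrin, was at 0.912 and 0.724 CPM against 0.0502 to 0.177. Alox15, a lipoxygenase that acts on arachidonic acid, was the most abundant of the 7, at 15.3 and 17.0 CPM against 0.901 to 4.41. Esm1, a proteoglycan of endothelial cells, the zinc transporter Slc39a4 and the cation channel Trpm1, known from retinal bipolar cells and melanocytes, had ratios of 5.13, 4.91 and 4.34, each with no overlap.

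The 6 annotated genes outside the pineal lists whose CPM followed Tph1 most closely over the 9 libraries were Lrit1 (Pearson r = 0.999), Miox (0.998), Nphs1 (0.992), Chrnb4 (0.971), Slc39a4 (0.966) and Esm1 (0.962). These values rest on the same 2 high libraries and are descriptions. A second locus named Ogn (MSTRG.41526) was at 1.91 and 1.44 CPM against 0 to 0.354. Of 26661 loci without an annotated gene, 12 (0.045%) were called higher and 83 (0.311%) lower. With 200 or more counts, MSTRG.87973 on chr6:43123988-43126497 was at 10.2 and 4.96 CPM against 0.0230 to 4.25, and MSTRG.113280 on chrX:115400865-115412767 was at 2.79 and 1.23 CPM against 0.218 to 0.651.

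The 3 annotated genes called lower were all low and carry clone-based names. AABR07030563.1 was at 0.0525 and 0.0362 CPM in the rich libraries against 0.168 to 0.294. AC240408.2, on chromosome Y, was at 0.396 and 0 CPM against 0.410 to 1.46. AABR07005535.2 was at 0.334 and 0.148 CPM against 0.397 to 2.03. The values just inside and outside the overlap limit were close for the last 2 genes, and leaving mitochondrial loci out of the totals reduced the 3 calls to 1.

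Lists for neighbouring and other tissues were measured beside the pineal genes. Of the retina-only list 6 of 13 genes matched and none was called: Rpe65, Grm6, Rlbp1 and the melanopsin gene Opn4 overlapped, the short-wave opsin Opn1sw had 9 counts, all in the rich libraries, and the ganglion cell factor Pou4f2 lay apart at 0.445 and 0.404 CPM against 0.0558 to 0.277. The retina-only sum was 26.3 and 16.3 CPM against 16.9 to 28.5. In the habenula list only Chrnb4, a nicotinic receptor subunit also expressed by pinealocytes, was called, at 3.61 and 2.26 CPM against 0.0838 to 0.879. The other 6 habenula genes overlapped, with Gpr151 at 0.469 and 0.553 CPM against 0 to 0.947.

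The raphe genes Tph2 and Slc6a4 were high in the rich libraries but not only there. Tph2 reached 10.6 and 7.77 CPM in the rich pair, 8.43 in wild type rat 3, 6.17 in homozygous rat 3 and 0.628 to 1.86 in the remaining libraries. Slc6a4, the serotonin transporter, was at 5.30 and 3.24 CPM, against 4.50 for wild type rat 3 and 2.99 for homozygous rat 3. The 9 matched meningeal genes summed to 222 and 268 CPM, above the 129 to 212 CPM of the others, and 1 of them, Islr, lay apart by itself, at 7.43 and 6.98 CPM against 3.10 to 6.36. The part of raphe and meningeal RNA in the differences above was not tested.

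The remaining lists did not separate the sets, as was the case for most annotated genes (0.92% lay apart on the higher and 0.264% on the lower side). All 11 choroid plexus genes overlapped, with Ttr at 335 and 298 CPM against 169 to 493. Cerebellar genes summed to 178 and 168 CPM against 53.0 to 510 CPM, pituitary genes to 3.56 and 4.58 CPM against 1.37 to 8.39, and ependymal genes to 35.6 and 26.5 CPM against 20.9 to 40.5. Hypothalamic, thalamic, endothelial and Schwann cell genes also overlapped in sum and in each member.

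**Figure D4:**
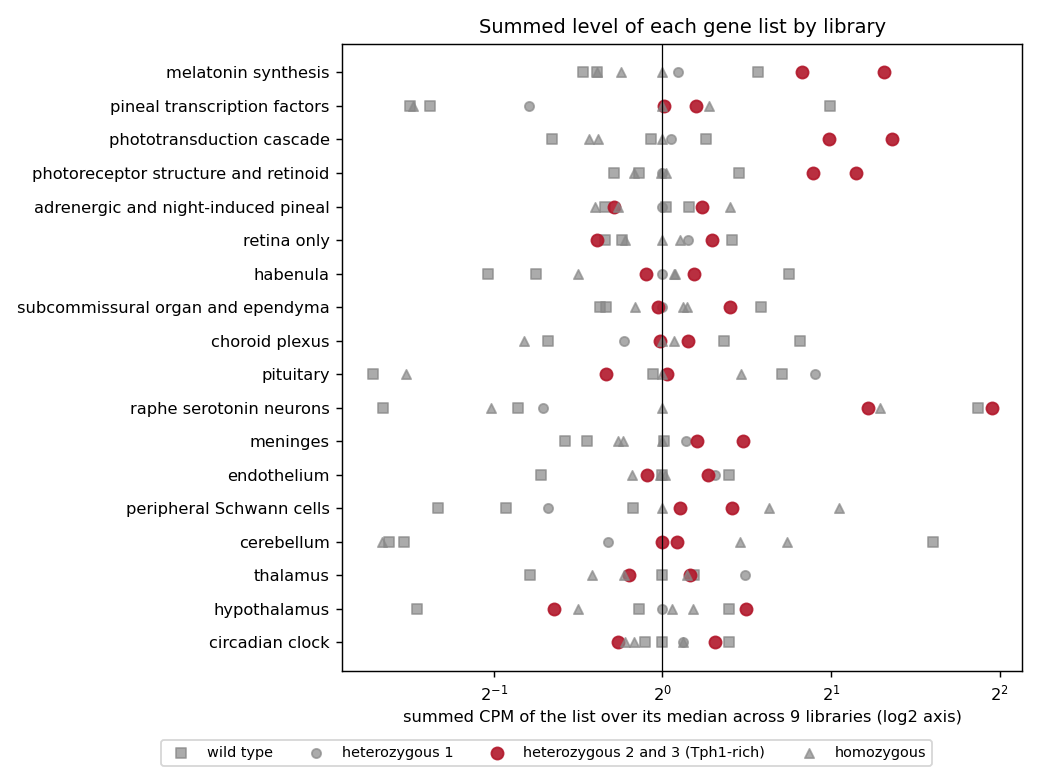
Summed CPM of each of the 18 gene lists in each library, divided by the list's median over the 9 libraries (log2 axis), with heterozygous rats 2 and 3 in red. The red points lie beyond all grey ones for melatonin synthesis, phototransduction, photoreceptor structure and, by a smaller margin, meninges (222 and 268 CPM against at most 212), while for every other list at least 1 red point lies within the range of the grey ones.

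The labelled comparison is by genotype, and there the pineal genes enter through 2 of the 3 heterozygous rats. Among 39057 loci tested with edgeR (quasi-likelihood, Benjamini-Hochberg adjusted p under 0.05), 3 (0.00768%) differed between heterozygous and wild type rats, 0 between homozygous and wild type rats and 1 (0.00256%) between homozygous and heterozygous rats. Of the 61 pineal members 40 were tested and 0 were called in any of these comparisons. At an unadjusted p under 0.05, 14 of the 40 were higher in heterozygous than in wild type rats and 0 lower, where 3.73% of all loci passed in either direction. In homozygous against wild type rats 4 of the 40 were higher, a share near the 9.13% of all loci. In homozygous against heterozygous rats 12 were lower, with 1.71% of all loci passing. With DESeq2, 18 (0.0461%), 33 (0.0845%) and 6 (0.0154%) loci were called in the 3 comparisons, among them 1 pineal member, Gnb3, in heterozygous against wild type rats (log2 fold change 3.65, DESeq2 adjusted p = 0.038). A looser filter of 10 counts in sum brought 60 pineal members and all 28 genes called higher into the test. It gave 4 (0.00523%), 3 (0.00392%) and 2 (0.00261%) calls in the same comparisons, none a pineal member, with 29 members higher in heterozygous than in wild type rats and 26 lower in homozygous than in heterozygous rats at an unadjusted p under 0.05, which 6.74% and 4.82% of all loci passed. The heterozygous group holds the libraries chosen by Tph1, so its member counts are descriptions.

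The fold changes of the markers were large and their errors were too. SE of an edgeR fold change is here its absolute log2 value over the square root of the quasi-likelihood F statistic. In heterozygous against wild type rats the log2 fold change was 5.26 (SE 2.04) for Tph1 and 6.63 (SE 1.59) for Rbp3. It was 3.59 (SE 0.76) for Gnb3 and 4.84 (SE 1.31) for Pde6g, and each of these had an edgeR adjusted p = 0.981. The rich libraries were chosen by Tph1 and both are heterozygous, so these marker values are descriptions and not a test of genotype. When both rich libraries were left out, heterozygous rat 1 stood alone for its genotype and was taken to vary like the others. The log2 fold changes then became -0.53 for Tph1, 1.31 for Rbp3, 0.57 for Gnb3 and -0.14 for Pde6g. The libraries left out were chosen for high Tph1, so a smaller difference follows from the choice and these values are a description. In that fit edgeR called no locus in any comparison; at an unadjusted p under 0.05, 1.84% of loci passed in heterozygous against wild type rats. Of the 28 genes, 12 passed the count filter for testing, and all 12 had log2 fold changes between 1.91 and 6.63 with the 3 heterozygous rats. The 28 were chosen for being high in the rich libraries, so this range too is a description.

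**Figure D5:**
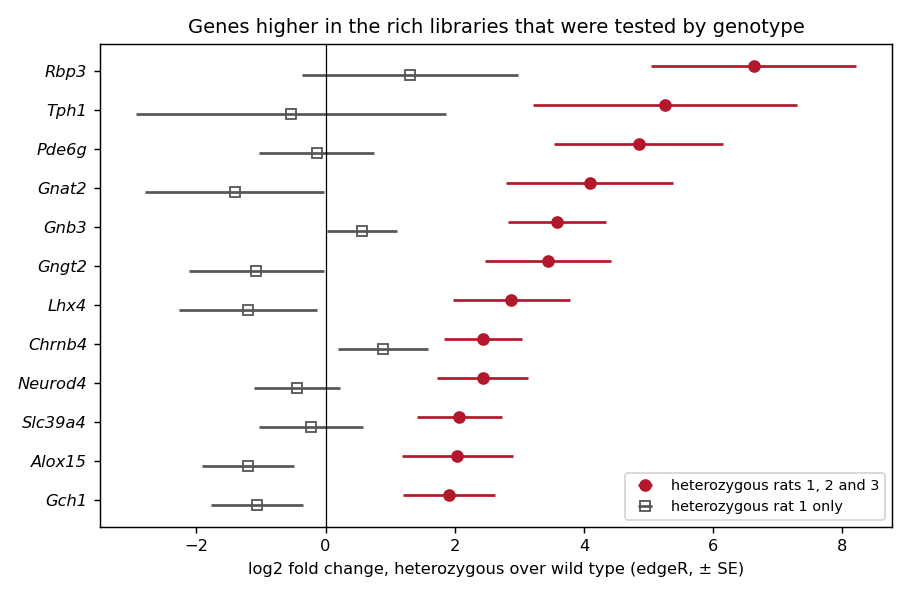
Log2 fold change of heterozygous over wild type rats (edgeR, bars ± SE derived from the F statistic) for the 12 genes called higher that passed the count filter. Filled circles use all 3 heterozygous rats and open squares heterozygous rat 1 alone. The filled circles lie between 1.91 and 6.63, and the open squares between -1.41 and 1.31; since the genes were chosen for being high in the 2 libraries left out, the contrast is a description.

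When instead heterozygous rat 1 was left out, the heterozygous group was the rich set itself, and 28 loci (0.0684% of 40916) were called against wild type, 16 of them pineal members, all 16 higher. The 16 were Gnb3, Asmt, Pde6c, Sag, Aipl1, Pde6g, Gngt2, Tulp1, Rbp3, Neurod4, Guca1b, Rom1, Isl2, Lhx4, Guca1a and Gnat2, and Lrit1, Miox and Nphs1 were also called. In homozygous against heterozygous rats 18 loci (0.044%) were then called, 11 of them pineal members, all lower in homozygous rats. In this fit the count filter admitted 55 pineal members and all 28 genes called higher, where 40 and 12 were tested with all 9 libraries. Some members, such as Isl2 with 24 and 23 counts in the rich pair, passed it only through the libraries where they are high. The 2 remaining heterozygous libraries were also chosen by their Tph1 level, so these calls are descriptions. Tph1 was not among them (log2 fold change 5.87, SE 1.75, edgeR adjusted p = 0.753); wild type rats ranged from 0.159 to 3.83 CPM in it.

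The calls of the 9-library comparison were not pineal genes. LOC685025 on chromosome X had 1.48, 1.71 and 0.543 CPM for heterozygous rats 1 to 3 and 0 to 0.0477 CPM across wild type (log2 fold change 5.85, SE 0.75, edgeR adjusted p = 0.0167). MSTRG.93883 on chromosome 7 had 0 counts in the 3 heterozygous rats and at least 1.24 CPM in each of the rest, and MSTRG.93889 on the same chromosome had at least 1.15 CPM in heterozygous rats and 0 counts elsewhere. In these loci heterozygous rat 1 went with rats 2 and 3. The loci were called for a difference between whole groups, and the rich set was chosen for Tph1 in rats 2 and 3. Both patterns thus partly follow from the choice, and the values are given as a description. The other symbol genes of smallest p did not pass: AABR07072025.1 and AABR07072283.2 in heterozygous against wild type rats (edgeR adjusted p = 0.357 each), LOC685025, AABR07072283.2 and AABR07071745.1 in homozygous against wild type rats (0.0966, 0.0966 and 0.131), and Gh1, LOC102546354 and LOC103694381 in homozygous against heterozygous rats (1.00 each).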

How the data were processed

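RNA of 9 whole brains was sequenced from stranded, ribosomal RNA-depleted libraries. The authors deposited RSEM expected counts, TPM and FPKM (the last not used here) per locus and isoform of a merged assembly on rn6; cutadapt, HISAT2, StringTie and RSEM are named without versions, per the submitters' processing notes. No source used here says whether counting used the strand, so overlapping genes are uncertain. The count matrix and the library files differed in 0 values, and 99 loci of RNA standards stayed out of totals.

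CPM was the expected count over the library total. A symbol was taken at its most abundant locus on the annotated strand (19279 loci of 114601). A gene was called where it had 50 or more counts in sum, mean CPM differed at least 4-fold and the sets did not overlap; a set at 0 was given a floor of 3 counts over the set. Named genes were all pineal list members (61 with values and 14 with no matched locus) and up to 4 of each other list. Also named were the called genes outside lists (at most 12 higher and 8 lower), 5 unannotated loci and 6 genes most like Tph1. In each genotype comparison pineal calls and the 3 symbol genes with the lowest p were named. Second loci of a symbol and further members of other lists were named after their values were seen. The members and lists were chosen with earlier results of these data known.

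Rounded expected counts were tested by genotype with edgeR 4.0.16 (TMM, filterByExpr, robust quasi-likelihood) in R 4.3.3, with DESeq2 1.42.0 as an alternative. The labels number separate rats. On simulated data edgeR recovered 20% of 2-fold and 96% of 4-fold changes in heterozygous against wild type rats (38757 loci, 12 false calls). The call rule recovered 56% at 4-fold and 100% at 8-fold with 0 false calls over 15548 genes. The simulations gave all loci the same relative spread and set the changed group beforehand. Changed loci were drawn only from the more abundant ones, so recovery is not known for called genes as low as Crx and Isl2. Their false calls therefore do not measure chance calls in sets picked by Tph1. Intervals and floors cover counting error alone, as PCR copies of a molecule could not be told from separate molecules. Alternatives covered scaling, count minimum, fold, the other set, filters, size factors, the replicate number and each library left out.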

Additional observations from a re-analysis of the deposited data

How the results depend on the processing

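The 28 genes called higher stayed the same 28 with TMM scaling and without mitochondrial loci, and were all among the 30 called with TPM. The count was 78 with heterozygous rat 1 alone as the other set, 61 at a fold of 2, 75 with no count minimum and 6 with 500 counts, all 6 among the 28. Leaving out each library gave 22 to 33. Without the libraries of next highest Tph1 (homozygous rat 3 and wild type rat 2), an alternative chosen after seeing the data, it was 31. The 3 genes called lower became 1 without mitochondrial loci, 1 with TPM, 27 with heterozygous rat 1 alone, 11 with the other set of the same pattern of RNA standards, 16 at a fold of 2, 0 at a fold of 8, 10 with no count minimum and 0 with 500 counts, and 1 to 31 when each library was left out: 31 without heterozygous rat 2, 15 without heterozygous rat 3 and 1 without wild type rat 1. The summed pineal lists had a ratio of 1.89 by TPM against 1.41, and 1.19 to 1.63 with each library left out. Most single-gene alternatives drop libraries and cannot turn a gene whose sets do not overlap; under TMM, TPM and totals without mitochondrial loci, which can, no called gene turned. The lowest ratio of a gene called higher was 3.06 (Esm1 against heterozygous rat 1 alone). The median log2 ratio over all genes was 0.03 in CPM, 0.06 with TMM and 0.16 in TPM.

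For heterozygous against wild type rats, DESeq2 called 18 loci and the fit without both rich libraries 0, and each library left out gave 1 to 28: 1 without wild type rat 2 or heterozygous rat 2, 28 without heterozygous rat 1 and 7 without homozygous rat 1. For homozygous against wild type rats the counts were 3 with a filter of 10 counts in sum, 33 with DESeq2, and 0 to 5 with each library left out (5 without homozygous rat 1). For homozygous against heterozygous rats they were 2 with RLE size factors, 2 with either looser filter, 6 with DESeq2, 0 without both rich libraries and 1 to 18 with each library left out (18 without heterozygous rat 1). With the replicate number as a block the 3 comparisons gave 3, 1 and 2 calls, none a pineal member. Same-numbered rats correlated at -0.11 to 0.27 in 9 pairs, 5 of them over 0.1, and 4 of 9 libraries correlated best with their own number, so the numbers were not taken as pairs. The fold changes of Tph1 and Pde6g in heterozygous against wild type rats turned to -0.53 and -0.14 without both rich libraries. The cause of the other changes was not tested.

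Many pineal genes had under 10 counts in each other library, which limits the precision of their ratios.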

Other observations

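Several genes lay apart between the sets by less than a fold of 4, and those named here were chosen after their values were seen. The midbrain and hindbrain homeobox factors Pax7 and En1 were at 0.867 and 0.426 CPM against 0.0279 to 0.400, and at 1.48 and 1.51 CPM against 0.0690 to 1.35. Tfap2d, a transcription factor of the dorsal midbrain, was at 1.73 and 1.55 CPM against 0.419 to 1.48. Car3, a carbonic anhydrase, was at 3.66 and 2.83 CPM against 1.05 to 2.09, and Ppef2, a phosphatase of photoreceptors, was at 1.5 and 1.24 CPM against 0.195 to 0.615. Cacna2d4, a calcium channel subunit of photoreceptor synapses, was at 0.750 and 0.660 CPM against 0.109 to 0.473. With 143 of 15548 genes (0.92%) apart on the higher side, small ratios of this kind are given as values only.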
